A study of Mus musculus with 18 samples.

Results

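Rab genes encode small GTPases and Tbc1d genes encode proteins with a TBC domain, most of which switch Rabs off. All genes of the deposited count table whose symbol is Rab followed by a number (with a letter or further digit where there is one) or begins with Tbc1d and a number were taken, which gave 90 of 54232 genes. They are 59 Rab genes and 31 Tbc1d genes, of which 89 are annotated as protein coding and 1, Tbc1d22bos, as noncoding. Transcripts were counted in round spermatids (RS), the haploid germ cells that follow meiosis, from testes of mice 75 to 85 days old. Each of 3 genotypes had 6 libraries, 18 in all. WT mice carried the unaltered Ddx25 gene. KO mice (GRTH-KO) lacked GRTH, the testis RNA helicase encoded by Ddx25. KI mice (GRTH-KI) carried, as the study describes them, a human GRTH gene with a missense mutation and lacked the phosphorylated form of the protein. Males of both mutant genotypes are described as sterile, with RS that do not elongate, and the number of animals behind a library is not given in the sources used here. No library was given a treatment.

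A Rab cycles between a form bound to GTP, which sits on a membrane and recruits effectors, and a form bound to GDP. Exchange factors (GEFs) load the GTP, and GTPase-activating proteins, most of them with a TBC domain, trigger its hydrolysis. Each Rab marks particular membranes, such as the ER and Golgi for Rab1, Rab2 and Rab6, early endosomes for Rab5, recycling endosomes for Rab11 and late endosomes for Rab7. In RS this traffic carries Golgi-derived and endosomal vesicles to the growing acrosome, and Rab and Tbc1d proteins also take part in building cilia and flagella. TBC1D20 is the GTPase-activating protein of Rab1, and its loss in mice leaves sperm without a normal acrosome.

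The targeted gene was checked first. Ddx25 lay between 538 and 607 CPM (normalized counts, scaled to the size of the library) in WT and between 47.7 and 90.9 CPM in KO. It lay between 0.0456 and 0.519 CPM in 5 KI libraries and at 56.9 CPM in the library labelled KI 4, within the range of the KO libraries. A human transgene is not in the mouse annotation, and whether any of its reads were counted in the mouse gene was not tested. Gene totals lay between 18766971 and 26776555 counts per library. The counts of KI 4 were also closer to those of KO 2 than those of any other pair of libraries were to each other. The median over genes of their squared difference was 1.59 times that expected from counting noise. Another 6 pairs, each within a genotype, lay at 2.07 to 3.02 times, and the next pair at 4.64 times. These pairs were therefore also summed with KI 4 left out, and KI 4 was also left out alone. The calls that this removes are given beside the results. The cell fraction was checked with marker lists. Summed markers of elongating spermatids lay between 15948 and 21960 CPM in WT, between 1866 and 4711 CPM in KO and between 2477 and 3808 CPM in KI, with all 11 genes above the floor in each genotype. Summed markers of RS lay between 1669 and 2446 CPM in WT, 930 and 2192 CPM in KO, and 1021 and 1629 CPM in KI, and those of spermatocytes between 2028 and 2510 CPM in all libraries. Summed Leydig cell markers lay between 11.04 and 23.3 CPM in WT, 35.0 and 61.5 CPM in KO, and 14.9 and 78.0 CPM in KI. The lists for spermatogonia, Sertoli cells, macrophages, endothelial and peritubular cells and red blood cells each summed to 76.5 CPM or less in every library. Endothelial and peritubular markers lay between 16.6 and 21.5 CPM in WT, 19.1 and 33.1 CPM in KO, and 21.8 and 30.7 CPM in KI, so KI lay above WT. Spermatogonial markers lay between 30.5 and 41.1 CPM in WT, 34.3 and 73.0 CPM in KO, and 21.3 and 76.5 CPM in KI. The sums for Sertoli cells, macrophages and red blood cells overlapped between genotypes. All marker genes exceeded the floor in a library of each genotype, except Fshr of Sertoli cells in WT and KO and the globins Hbb-bt and Hba-a2 in WT. The part of these markers in the changes below was not tested, and fewer cells of a type and less RNA per cell cannot be told apart in these samples.

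The promoters of the members that moved together are shown here because they are the stretches such genes could share. RefSeq held a window of 250 bases before to 50 bases after the start for 72 of the 90 members, 91 windows in all (GRCm38.p6). The letters searched were those of the half-site of the cAMP response element, TGACG or its reverse complement CGTCA, which factors of the CREB and CREM family bind. CREM is a main transcription factor of RS. The half-site stood in 35 of the 91 windows of members, 38.5%, against 20.8% of all 32851 windows. The windows of members also had more G and C, with a median of 61.3% against 52.7%, and the part of this in the difference was not tested. The full palindrome TGACGTCA, which contains both half-sites, stood in 2.20% of windows of members and 1.79% of all windows. The next lines give a window of each of the 4 members lower in both KO and KI and then of the 4 members higher in both with no overlap between any WT library and any mutant library, 5′ to 3′ on the strand of the gene. Capitals mark the half-site.
Tbc1d20, chr2:152293578-152293877, + strand: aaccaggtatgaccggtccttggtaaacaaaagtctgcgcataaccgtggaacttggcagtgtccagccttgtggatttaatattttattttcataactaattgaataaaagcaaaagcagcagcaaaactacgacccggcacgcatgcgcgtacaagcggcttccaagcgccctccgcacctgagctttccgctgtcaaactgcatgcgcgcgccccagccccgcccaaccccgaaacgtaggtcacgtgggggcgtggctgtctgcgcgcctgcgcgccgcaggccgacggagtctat
Rab28, chr5:41708130-41708429, - strand: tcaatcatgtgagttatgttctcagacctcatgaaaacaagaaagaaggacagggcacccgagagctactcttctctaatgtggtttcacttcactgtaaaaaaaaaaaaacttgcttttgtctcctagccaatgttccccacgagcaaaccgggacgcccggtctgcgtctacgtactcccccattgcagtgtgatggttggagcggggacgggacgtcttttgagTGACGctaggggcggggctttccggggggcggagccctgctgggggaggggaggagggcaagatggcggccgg
Tbc1d7, chr13:43171452-43171751, - strand: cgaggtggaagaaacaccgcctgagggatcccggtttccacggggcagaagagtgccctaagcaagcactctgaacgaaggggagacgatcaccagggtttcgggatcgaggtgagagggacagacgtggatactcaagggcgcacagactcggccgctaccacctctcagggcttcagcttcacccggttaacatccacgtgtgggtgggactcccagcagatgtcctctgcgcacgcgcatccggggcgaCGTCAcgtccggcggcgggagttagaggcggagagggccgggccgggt
Tbc1d21, chr9:58370406-58370705, - strand: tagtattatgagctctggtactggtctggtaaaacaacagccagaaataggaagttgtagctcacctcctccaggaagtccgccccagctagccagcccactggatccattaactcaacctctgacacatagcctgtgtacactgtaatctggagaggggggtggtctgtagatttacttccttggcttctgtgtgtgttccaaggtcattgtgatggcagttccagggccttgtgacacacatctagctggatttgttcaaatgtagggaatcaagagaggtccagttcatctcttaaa
Rab6b, chr9:103111824-103112123, + strand: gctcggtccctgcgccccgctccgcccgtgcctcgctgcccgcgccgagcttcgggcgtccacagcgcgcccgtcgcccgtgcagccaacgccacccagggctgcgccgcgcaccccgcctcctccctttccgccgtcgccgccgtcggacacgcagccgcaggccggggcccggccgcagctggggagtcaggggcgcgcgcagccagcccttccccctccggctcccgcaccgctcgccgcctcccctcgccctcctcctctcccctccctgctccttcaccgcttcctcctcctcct
Rab11b, chr17:33760437-33760736, - strand: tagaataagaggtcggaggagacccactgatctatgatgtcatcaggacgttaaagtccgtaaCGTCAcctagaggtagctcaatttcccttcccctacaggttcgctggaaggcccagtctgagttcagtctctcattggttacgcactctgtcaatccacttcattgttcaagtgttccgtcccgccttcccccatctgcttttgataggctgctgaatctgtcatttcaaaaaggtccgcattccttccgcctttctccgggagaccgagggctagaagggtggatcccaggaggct
Tbc1d13, chr2:30133496-30133795, + strand: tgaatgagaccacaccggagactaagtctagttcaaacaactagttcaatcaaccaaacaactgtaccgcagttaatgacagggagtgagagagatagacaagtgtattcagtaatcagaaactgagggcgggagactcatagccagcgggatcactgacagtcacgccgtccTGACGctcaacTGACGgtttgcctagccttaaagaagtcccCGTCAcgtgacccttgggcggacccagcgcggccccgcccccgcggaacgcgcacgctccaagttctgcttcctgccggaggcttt
Tbc1d22a, chr15:86214209-86214508, + strand: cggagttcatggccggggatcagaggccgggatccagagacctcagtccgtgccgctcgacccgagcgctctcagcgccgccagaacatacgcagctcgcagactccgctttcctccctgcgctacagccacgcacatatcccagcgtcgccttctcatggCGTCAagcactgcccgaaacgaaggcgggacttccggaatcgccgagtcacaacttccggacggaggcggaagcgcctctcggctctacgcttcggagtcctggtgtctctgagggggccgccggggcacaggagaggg
Of the 4 lower members, Rab28 held the half-site from 23 bases before its start and Tbc1d7 from 2 bases after it, while these letters are not in the windows of Tbc1d20 and Tbc1d21. Tbc1d22a has a second window, not printed here, with the half-site from 24 bases after its start. Among the 12 members higher in both genotypes that had a window, 7 of 14 windows held it. A match is a description of the letters, not a site shown to be bound.

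Levels can be compared between genes only per length, and for this RPKM was computed from the counts and the gene lengths of the table. Tbc1d transcripts stood at the top in WT. Tbc1d15, which encodes a GTPase-activating protein of Rab7 on late endosomes and mitochondria, had 65.6 ± 15.96 RPKM (SD, n = 6), with libraries from 48.8 to 85.8. Tbc1d21, a gene expressed mainly in testis whose product is needed for the midpiece of the sperm tail, followed with 61.2 ± 16.1 RPKM, and Tbc1d20 with 50.7 ± 4.95 RPKM. The libraries of these 3 genes overlapped, so their order is not resolved. All 3 lay above every library of the next gene, Rab2a, an ER-to-Golgi Rab with a place in acrosome formation, at 25.2 ± 6.28 RPKM (18.05 to 33.4). Tbc1d1, a GTPase-activating protein known from glucose transport in muscle, had 21.8 ± 1.99 RPKM and Rab28, a Rab of the cilium, 20.2 ± 2.13 RPKM. Rab1b had 18.6 ± 1.44 RPKM, the recycling Rab Rab11a 16.99 ± 2.85 RPKM, the centrosomal Tbc1d31 16.7 ± 0.570 RPKM and the endosomal Rab22a 14.6 ± 1.20 RPKM. Each of these overlapped its neighbours in the order. In all, 54 members exceeded 1 RPKM in WT, 30 exceeded 5 RPKM and 16 exceeded 10 RPKM, 9 of these last Tbc1d genes and 7 Rab genes. The median of the tested Rab genes was 3.55 RPKM and that of the tested Tbc1d genes 3.82 RPKM.

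**Figure D1:**
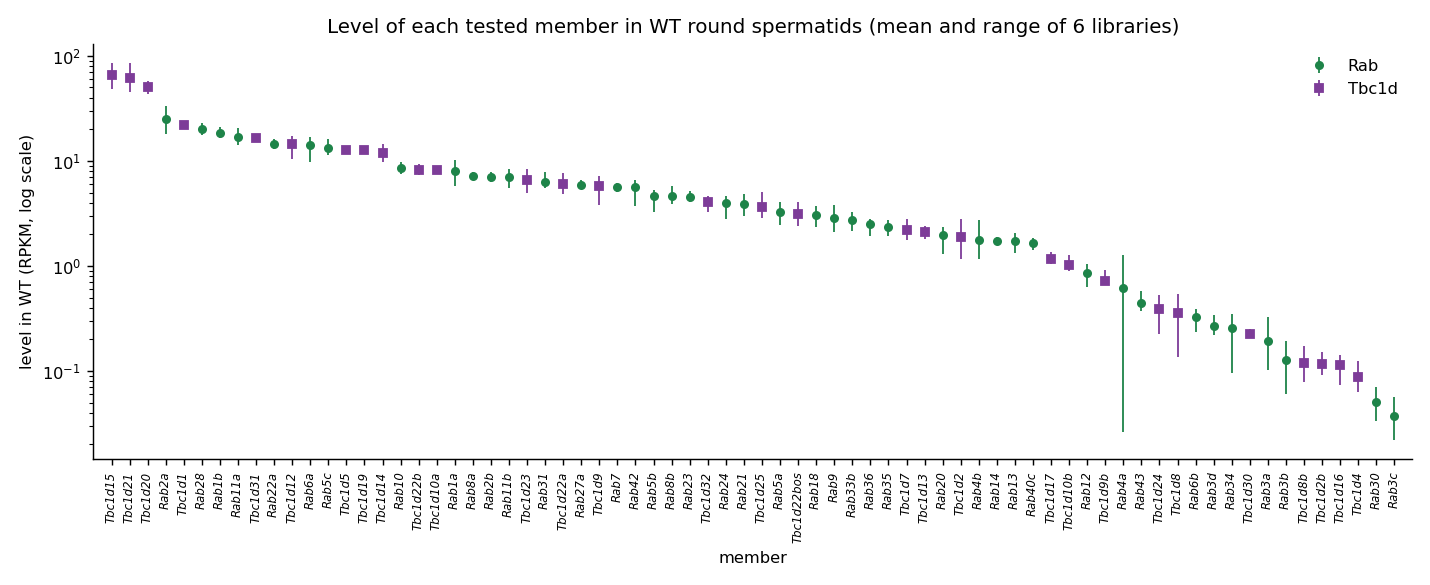
Level in WT RS (RPKM, log axis) of each of the 72 members tested, ordered from high to low. Points are means of 6 libraries and lines their range, with circles for Rab and squares for Tbc1d genes. Tbc1d15, Tbc1d21 and Tbc1d20 stand above the rest, between 50.7 and 65.6 RPKM.

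The filter on low counts passed 72 members, 42 Rab and 30 Tbc1d genes, and the counts that follow are of these tested members unless another set is named. The other 18 had at most 12 counts in any library. They were the secretory Rab26, Rab27b and Rab37, the Rabs of melanosomes and other lysosome-related organelles Rab29, Rab32 and Rab38, and also Rab7b, Rab9b, Rab15, Rab17, Rab19, Rab25, Rab33a, Rab39, Rab39b, Rab40b, Rab44 and Tbc1d10c. Of these, Rab33a, Rab38, Rab39b, Rab40b and Rab44 never exceeded 3 counts, the floor, which in these libraries allows a level of up to 0.112 to 0.160 CPM (for counting error only). Rab27b, a partner of Rab27a in secretion, had 0 to 6 counts, while Rab27a had 22.9 ± 1.86 CPM in WT.

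In KO against WT, 26 of the 72 tested members differed by any amount (edgeR quasi-likelihood test, Benjamini-Hochberg adjusted p under 0.1), 18 higher and 8 lower. Over all genes tested, 29.9% differed, 16.4% higher and 13.5% lower. The median log2 fold change of the tested members was 0.15, against 0.03 for all genes. In KI against WT, 21 members were higher and 4 lower, beside 16.1% and 15.4% of all genes (31.6% together), and the medians were 0.16 and 0.05. A change past 1 log2 unit was found for 1 member in either comparison, Tbc1d20, which was lower in both, beside 1.13% of all genes in KO and 1.43% in KI. No member was higher by more than 1 log2 unit in either comparison by edgeR's glmTreat, with 0 members at an unadjusted p under 0.05 and 0 by DESeq2, beside 0.598% and 0.522% of all genes. Both comparisons share the WT libraries. The libraries did not overlap for 8 higher and 5 lower members in KO (6.62% and 6.44% of all genes) and for 9 higher and 4 lower members in KI (5.97% and 7.91%). With close pairs of libraries summed and KI 4 left out, the filter passed 76 members, 46 of them Rab genes. Of these, 6 were higher and 5 lower in KO and 5 higher and 3 lower in KI, beside 7.94%, 7.62%, 5.32% and 6.87% of all genes. This removed 15 of the 26 calls in KO and 17 of the 25 in KI. Leaving out KI 4 alone removed 3 calls in KI, those of Rab1b, Rab6a and Rab7. It also added calls of Rab20 (higher) and Rab12 (lower) in KI and of Rab31 (higher) in KO. With close pairs summed and KI 4 left out, no member was lower by more than 1 log2 unit by glmTreat. The shares of all genes lower by that rule were 0.742% in KO and 0.688% in KI. The Rab transcripts together summed to between 758 and 933 CPM in WT, 867 and 978 CPM in KO, and 795 and 1018 CPM in KI, so the ranges overlapped. The Tbc1d transcripts summed to between 1461 and 1623 CPM in WT, 1356 and 1472 CPM in KO, and 1399 and 1538 CPM in KI, also with overlap.

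**Figure D2:**
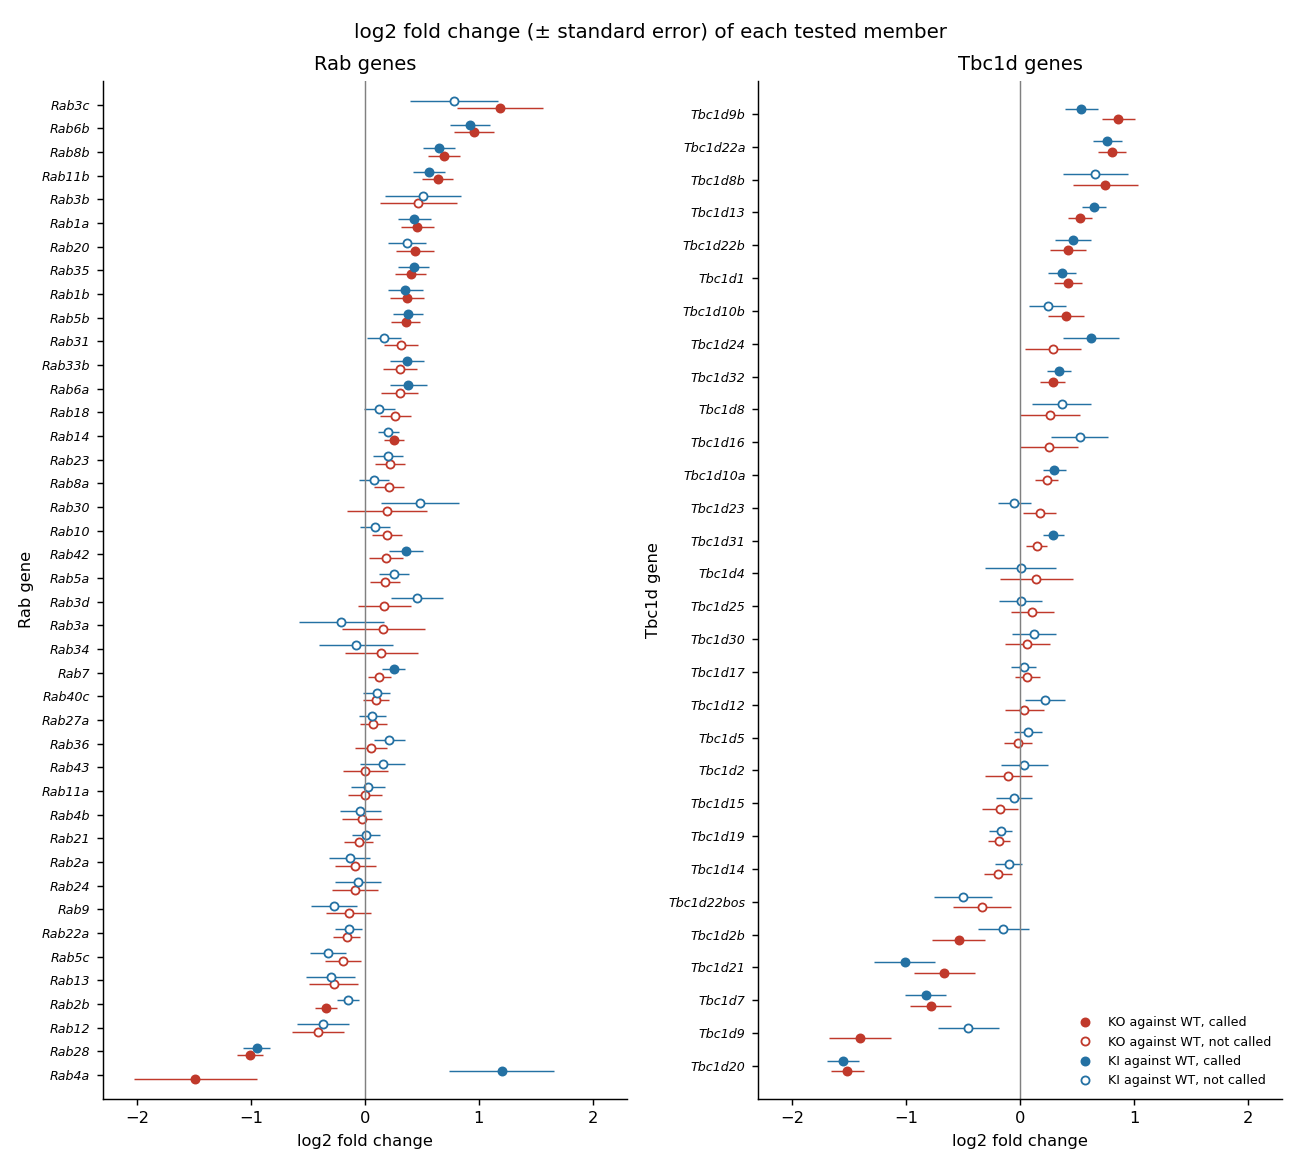
Log2 fold change (horizontal axis) of each tested Rab gene (left) and Tbc1d gene (right), with its standard error as a line, in KO against WT (red) and KI against WT (blue). Filled points were called at an adjusted p under 0.1. Most members lie within 1 unit of 0, and Tbc1d20 lies lowest among Tbc1d genes in both genotypes, at -1.52 and -1.56.

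Tbc1d20, Rab28, Tbc1d7 and Tbc1d21 were lower in both mutant genotypes. Tbc1d20 (chromosome 2, 152293828 to 152313996, + strand) had 201, 212, 242, 223, 211 and 181 CPM in the WT libraries. It had 72.7, 76.5, 56.0, 73.4, 78.6 and 85.9 CPM in KO, and 87.9, 89.2, 54.9, 80.0, 52.5 and 67.0 CPM in KI. The highest mutant library, at 89.2 CPM, lay below the lowest WT library, at 181 CPM. The log2 fold change was -1.52 ± 0.14 (SE) in KO and -1.56 ± 0.14 in KI, a fall of 65.1% and 66.0% in mean CPM. For a change past 1 log2 unit, edgeR gave an adjusted p of 0.0458 for KO and 0.0229 for KI. With close pairs summed and KI 4 left out this p was 0.319 and 0.484, with log2 fold changes of -1.53 and -1.56.

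Rab28 (chromosome 5, 41624976 to 41708157, - strand), a farnesylated Rab of the cilium and of photoreceptors, had 80.2, 84.0, 102, 92.4, 104 and 87.6 CPM in WT. It had 40.0, 43.6, 52.8, 49.0, 42.6 and 45.7 CPM in KO, and 37.5, 42.0, 57.2, 46.2, 55.1 and 47.0 CPM in KI. The groups did not overlap, and the log2 fold change was -1.01 ± 0.12 in KO (edgeR adjusted p = 1.37e-06) and -0.95 ± 0.12 in KI (adjusted p = 2.69e-06). No alternative tried removed these calls. Tbc1d7, the third subunit of the TSC complex that restrains mTORC1, was a weakly expressed member. It lay between 7.18 and 11.3 CPM in WT, between 3.98 and 6.94 CPM in KO and between 3.41 and 6.79 CPM in KI, again without overlap. Its log2 fold change was -0.79 ± 0.18 (edgeR adjusted p = 0.00252) and -0.83 ± 0.18 (adjusted p = 0.00142).

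Tbc1d21 varied more. It had 102, 114, 76.0, 67.8, 69.6 and 59.7 CPM in WT and 43.5, 43.4, 30.1, 36.5, 38.8 and 49.3 CPM in KI, all KI libraries below all WT libraries. In KO it had 89.5, 35.2, 15.8, 62.5, 61.4 and 43.5 CPM, so that KO 1 lay above 4 of the WT libraries and KO 3 below every other library. The log2 fold change was -0.67 ± 0.27 in KO (edgeR adjusted p = 0.0751) and -1.02 ± 0.27 in KI (adjusted p = 0.00717). With close pairs summed and KI 4 left out the adjusted p was 0.219 and 0.212. A difference between KI and KO was not detected (log2 fold change -0.35 ± 0.27, adjusted p = 0.961).

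**Figure D3:**
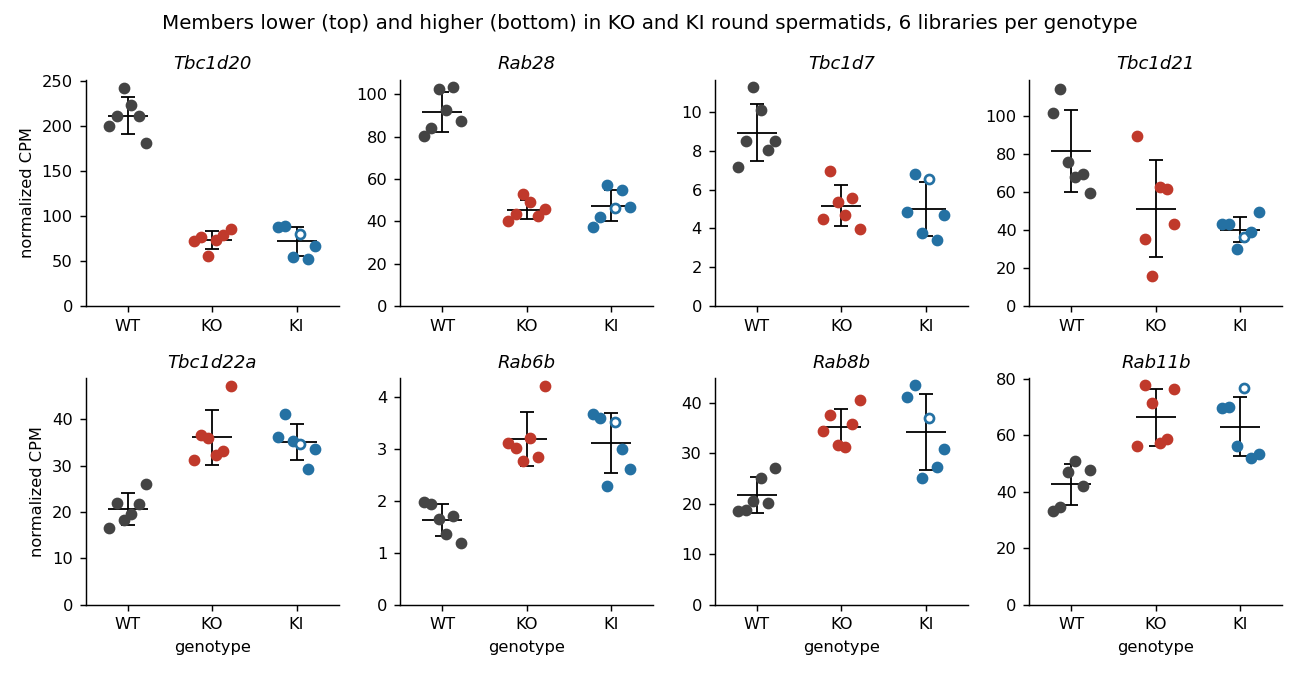
Normalized CPM (vertical axes, from 0) of 4 members lower in both mutant genotypes (top) and 4 higher in both (bottom). Points are the 6 libraries of a genotype, with the library labelled KI 4 as an open circle, and bars are the mean ± SD. The mutant libraries lie apart from WT for Tbc1d20, Rab28 and Tbc1d7, and overlap WT in KO for Tbc1d21.

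The members higher in both genotypes were Rab1a, Rab1b, Rab5b, Rab6b, Rab8b, Rab11b, Rab35, Tbc1d1, Tbc1d9b, Tbc1d13, Tbc1d22a, Tbc1d22b and Tbc1d32. Each rose by less than 1 log2 unit. Rab6b, the paralogue of the Golgi Rab Rab6a known from neurons, had 1.97, 1.93, 1.65, 1.36, 1.71 and 1.20 CPM in WT. It had 3.11, 3.01, 2.75, 3.20, 2.84 and 4.20 CPM in KO, and 3.66, 3.59, 2.28, 3.51, 2.99 and 2.61 CPM in KI. All mutant libraries lay above all WT libraries, at a low level, and the log2 fold change was 0.96 ± 0.18 in KO (edgeR adjusted p = 0.000328) and 0.93 ± 0.18 in KI (adjusted p = 0.000422).

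Tbc1d22a, whose product binds the Golgi protein ACBD3, had 16.5, 21.9, 18.3, 19.6, 21.7 and 26.1 CPM in WT. It had 31.3, 36.6, 36.0, 32.4, 33.1 and 47.3 CPM in KO, and 36.2, 41.2, 35.4, 34.8, 29.2 and 33.6 CPM in KI. The lowest mutant library stood above the highest WT library, and the log2 fold change was 0.81 ± 0.13 in KO (edgeR adjusted p = 6.42e-05) and 0.76 ± 0.13 in KI (adjusted p = 0.000102). Its paralogue Tbc1d22b rose from 34.1 ± 3.003 CPM to 45.7 ± 10.3 CPM in KO and 47.0 ± 11.02 CPM in KI, with overlap. Tbc1d13, a GTPase-activating protein of Rab35, rose from 9.99 ± 1.22 CPM to 14.4 ± 1.43 CPM and 15.6 ± 1.01 CPM, with no overlap in either genotype (log2 fold change 0.52 ± 0.11 and 0.65 ± 0.11). Rab35 itself, of the plasma membrane and recycling endosome, rose from 6.63 ± 0.903 CPM to 8.77 ± 0.991 CPM and 8.92 ± 1.48 CPM. Its adjusted p was 0.202 and 0.264 with close pairs summed and KI 4 left out.

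Rab8b, which directs vesicles to the plasma membrane and cilium, had 18.5, 18.8, 20.6, 25.2, 20.2 and 27.0 CPM in WT. It had 34.5, 37.5, 31.7, 31.3, 35.7 and 40.5 CPM in KO, and 41.2, 43.6, 25.1, 37.0, 27.3 and 30.9 CPM in KI. The KO libraries lay above WT, while KI 3 lay within the range of WT, and the log2 fold change was 0.70 ± 0.14 and 0.65 ± 0.14 (edgeR adjusted p = 0.000868 and 0.00136). Rab11b, of the recycling endosome, rose from 42.7 ± 7.23 CPM to 66.4 ± 10.004 CPM in KO and 63.0 ± 10.5 CPM in KI, with no overlap. A near copy of this gene, Rab11b-ps2, is annotated, and reads that fit both were not counted, so the level of Rab11b is uncertain. With close pairs summed and KI 4 left out, its adjusted p was 0.0297 in KO and 0.155 in KI.

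Tbc1d1 rose from 161 ± 14.7 CPM in WT to 216 ± 23.6 CPM in KO and 208 ± 36.5 CPM in KI, the largest difference in CPM among the higher members. Tbc1d9b rose from 4.67 ± 0.584 CPM to 8.48 ± 0.645 CPM in KO, without overlap, and to 6.77 ± 1.45 CPM in KI. Rab1a and Rab1b, the ER-to-Golgi Rabs on which TBC1D20 acts, were higher too. Rab1a rose from 30.7 ± 6.93 CPM to 42.2 ± 3.34 CPM and 41.4 ± 7.41 CPM (edgeR adjusted p = 0.0229 and 0.0301), and Rab1b from 34.2 ± 2.64 CPM to 44.2 ± 7.27 CPM and 43.7 ± 12.1 CPM (adjusted p = 0.0868 and 0.0979). The calls of Tbc1d1, Rab1a, Rab1b and Tbc1d22b in both genotypes, and of Tbc1d9b in KI, were lost with close pairs summed and KI 4 left out, with adjusted p values between 0.135 and 0.355. Those of Rab5b (0.201 in KO and 0.259 in KI) and Tbc1d32 (0.273 and 0.266) were lost there as well. Rab1b had an adjusted p of 0.121 in KI without KI 4 alone.

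The shares of all genes beside the counts by role are again 16.4% higher and 13.5% lower in KO and 16.1% and 15.4% in KI, and most roles hold few members. The ER-to-Golgi and Golgi Rabs had 3 of 10 tested members higher and 1 lower in KO, and 5 higher in KI, where Rab6a and Rab33b were also called. Rab6a, which leads vesicles within the Golgi, had 53.0 ± 11.8 CPM in WT and 68.9 ± 16.4 CPM in KI (edgeR adjusted p = 0.0944), with 65.5 ± 8.77 CPM in KO (adjusted p = 0.190). Without KI 4 the adjusted p in KI was 0.127, and with close pairs summed as well it was 0.382. That of Rab33b was then 0.325. Rab2b, the paralogue of Rab2a, fell from 29.4 ± 2.78 CPM to 23.2 ± 1.75 CPM in KO without overlap (log2 fold change -0.34 ± 0.10, adjusted p = 0.0117) and had 26.4 ± 1.90 CPM in KI (adjusted p = 0.281). The adjusted p in KO was 0.1696 with close pairs summed and KI 4 left out. Rab2a had 53.8 ± 13.4 CPM in WT, 50.7 ± 5.89 CPM in KO and 49.1 ± 14.2 CPM in KI, a difference within its spread.

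Of the early and recycling endosome Rabs, 4 of 12 were higher and 1 lower in KO and 4 were higher in KI. Rab5a, of early endosomes, did not pass the test (7.65 ± 1.41 CPM in WT, 8.67 ± 1.001 CPM in KO and 9.14 ± 0.943 CPM in KI), and Rab11a was at 50.8 ± 8.53, 50.9 ± 4.66 and 51.8 ± 12.4 CPM. Rab14, which moves cargo between Golgi and endosomes, rose in KO from 23.5 ± 1.54 CPM to 28.1 ± 2.28 CPM (edgeR adjusted p = 0.0462) and had 27.2 ± 1.67 CPM in KI (adjusted p = 0.106). The KO call was lost with close pairs summed and KI 4 left out (adjusted p = 0.344). Among the late endosome and lysosome Rabs, 1 of 5 was higher in each genotype. Rab20 rose in KO from 2.76 ± 0.605 CPM to 3.75 ± 0.432 CPM, a log2 fold change of 0.44 (edgeR adjusted p = 0.0610). In KI it was 0.37 and not called (adjusted p = 0.110). Rab20 was called in KI with DESeq2, with its size factors, with at least 10 counts in every library and without KI 4. Rab7, the main late endosome Rab, rose in KI from 14.8 ± 1.19 CPM to 17.6 ± 0.851 CPM without overlap (adjusted p = 0.0653, and 0.101 without KI 4). With close pairs summed and KI 4 left out, the adjusted p was 0.141 for Rab20 in KO and 0.402 for Rab7 in KI.

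Of the polarised exocytosis Rabs, only Rab8b of 4 was called. Rab10 had 30.0 ± 2.72 CPM in WT, 34.3 ± 3.96 CPM in KO and 31.9 ± 7.35 CPM in KI. Rab28 was the only one called of 3 Rabs of the cilium, with Rab23 at log2 fold changes of 0.22 ± 0.13 and 0.21 ± 0.13. Among the Rabs of regulated secretion, which in other cells release granules, Rab3c was the only 1 of 5 called. It had 13, 9, 5, 14, 11 and 6 counts in WT and 15, 23, 15, 45, 31 and 16 counts in KO, a log2 fold change of 1.19 ± 0.38 (edgeR adjusted p = 0.0253) at a low level. The adjusted p was 0.111 with close pairs summed and KI 4 left out. In KI the log2 fold change was 0.78 ± 0.39 (adjusted p = 0.151). Rab3a, with a described place in the release of the acrosome, had 0.433 ± 0.206 CPM in WT, 0.485 ± 0.138 CPM in KO and 0.376 ± 0.208 CPM in KI. Rab27a was at 22.9 ± 1.86, 24.1 ± 2.97 and 23.99 ± 4.06 CPM.

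Of the 30 tested Tbc1d genes, 8 were higher and 5 lower in KO, and 9 higher and 3 lower in KI, beside 16.4% and 13.5% of all genes in KO and 16.1% and 15.4% in KI. Tbc1d15, the member with the highest level in WT, did not pass the test (279 ± 68.0 CPM in WT, 247 ± 34.8 CPM in KO, 269 ± 47.1 CPM in KI). Tbc1d31 rose in KI from 106 ± 3.63 CPM to 130 ± 7.83 CPM without overlap (log2 fold change 0.29 ± 0.09, edgeR adjusted p = 0.0237), and had 117 ± 9.43 CPM in KO (adjusted p = 0.288). Its adjusted p in KI was 0.295 with close pairs summed and KI 4 left out, and 0.119 with no filter on low counts. Tbc1d24, which is linked to synaptic vesicles and epilepsy, rose in KI from 5.22 ± 1.38 CPM to 8.05 ± 3.70 CPM, a rise carried by KI 3 (11.3 CPM), KI 5 (13.6 CPM) and KI 6 (8.28 CPM), with the other KI libraries between 4.55 and 5.84 CPM. KI 3 and KI 5 were one of the close pairs, and with such pairs summed and KI 4 left out the adjusted p was 0.178. The weakly expressed Tbc1d8b had 0.616 ± 0.228 CPM in WT and rose to 1.03 ± 0.333 CPM in KO, with 0.965 ± 0.246 CPM in KI (edgeR adjusted p = 0.0645 and 0.102). Tbc1d2b fell in KO from 1.03 ± 0.216 CPM to 0.698 ± 0.192 CPM (adjusted p = 0.0949), with 0.923 ± 0.187 CPM in KI (adjusted p = 0.689). Both KO calls were lost with close pairs summed and KI 4 left out (adjusted p = 0.249 for Tbc1d8b and 0.278 for Tbc1d2b), as were those of Tbc1d10b in KO (0.1997) and of Tbc1d10a (0.291) and Rab42 (0.141) in KI.

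Between KI and KO, 1 member was called, Rab4a, which was higher in KI, beside 0.076% of all genes. No member was lower in KI than in KO by edgeR or DESeq2, beside 0.0237% of all genes, with 1 member at an unadjusted p under 0.05 in edgeR. Rab4a (chromosome 8, 123805985 to 123835287, + strand) encodes a Rab of rapid recycling from early endosomes. It had 0.0457, 0.643, 0.584, 0.873, 2.08 and 2.25 CPM in WT. It had 0.382, 0.742, 0.380, 0.221, 0.240 and 0.346 CPM in KO, and 2.60, 3.31, 2.74, 0.635, 3.41 and 2.24 CPM in KI. The value of 0.635 is that of KI 4, which lay among the KO libraries, while the other KI libraries lay above every KO library. The WT libraries spread from the floor in WT 1 to the level of KI in WT 5 and WT 6. The log2 fold change was 2.69 ± 0.52 in KI against KO (edgeR adjusted p = 0.0499) and 2.89 ± 0.48 without KI 4 (adjusted p = 0.00508). Against WT, KO gave -1.49 ± 0.54 (adjusted p = 0.0499) and KI gave 1.20 ± 0.46 (adjusted p = 0.0613). With no fewer than 10 counts asked of every library, Rab4a is not tested.

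Tbc1d9 (chromosome 8, 83165352 to 83272934, + strand), which encodes a TBC-domain protein with a calcium-binding motif, lay on the same chromosome as Rab4a and was lower in KO. It had 34.0, 37.4, 42.7, 40.4, 22.4 and 24.8 CPM in WT. It had 17.1, 11.3, 5.89, 16.3, 16.7 and 8.62 CPM in KO, and 33.2, 31.1, 23.8, 10.96, 15.8 and 32.2 CPM in KI. All KO libraries lay below all WT libraries, whereas KI reached from the KO level, in KI 4 and KI 5, to the WT level. The log2 fold change was -1.41 ± 0.27 in KO (edgeR adjusted p = 0.000615) and -0.46 ± 0.27 in KI (adjusted p = 0.237). The direct difference of KI and KO was 0.95 ± 0.27 (adjusted p = 0.447), and without KI 4 it was 1.10 ± 0.25 (adjusted p = 0.0667). Thus 2 members, Rab4a and Tbc1d9, were higher in KI than in KO with KI 4 alone left out, beside 0.282% of all genes. With close pairs summed as well, Tbc1d9 was not called. Besides leaving out KI 4 alone, only the absence of a filter on low counts gave this call of Tbc1d9.

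**Figure D4:**
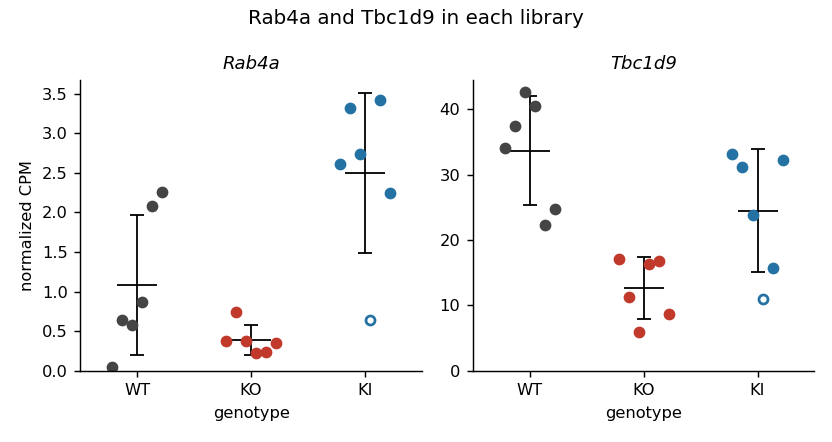
Normalized CPM (vertical axes, from 0) of Rab4a and Tbc1d9 in the 6 libraries of each genotype, with KI 4 as an open circle and bars for the mean ± SD. For Rab4a the KI libraries other than KI 4 lie between 2.24 and 3.41 CPM, above all KO libraries. For both genes KI 4, at 0.635 and 10.96 CPM, lies within the range of KO.

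Paralogues were compared within libraries, which sets aside the scaling between them. The 20 pairs of tested members with the same stem in their symbols were taken, a rule made after values of single members had been seen, and the log2 ratio of counts of each pair was compared between genotypes in 40 exact permutation tests (two-sided, smallest possible p 0.00216). The ratio of Rab8a to Rab8b fell from 0.64 ± 0.22 in WT to 0.14 ± 0.09 in KO and 0.05 ± 0.16 in KI. Rab8a itself had 33.6 ± 2.33, 38.9 ± 4.57 and 35.4 ± 8.34 CPM. The ratio of Rab11a to Rab11b fell from 0.25 ± 0.13 to -0.38 ± 0.23 and -0.30 ± 0.21. The ratio of Tbc1d9 to Tbc1d9b fell from 2.81 ± 0.35 to 0.48 ± 0.54 in KO and 1.77 ± 0.75 in KI, and to 2.06 ± 0.26 in KI without KI 4. These 6 differences had no overlap between genotypes, each with exact permutation p = 0.00216 and adjusted p = 0.0124. All 40 tests took each library as separate, and none was run with close pairs summed. Summing leaves 3 WT, 5 KO and 3 KI libraries, too few for a p as small as 0.00216.

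The ratio of Rab5b to Rab5c, both of early endosomes, rose from -0.59 ± 0.48 in WT to 0.14 ± 0.14 in KI without overlap (exact permutation p = 0.00216, adjusted p = 0.0124). In KO it was 0.59 above WT, with overlap (exact permutation adjusted p = 0.127). A further 4 tests passed an adjusted p of 0.1 with overlap. They were Rab3a to Rab3c (-0.92) and Rab3c to Rab3d (1.06) in KO, and Rab4a to Rab4b (1.68) and Rab5a to Rab5c (0.61) in KI, given as the difference in log2 ratio from WT. The ratios with Rab3a, Rab3c and Rab4a rest on few reads. In WT, Rab3a had 5 to 16 counts per library and Rab3c 5 to 14. Rab4a had 1 count in WT 1, beside 50 of Rab4b, and the WT log2 ratio of this pair was -2.28 ± 1.66. Without KI 4, the exact permutation adjusted p was 0.0519 for Rab4a to Rab4b and 0.115 for Rab5a to Rab5c, which then no longer passed. The ratio of Rab4a to Rab4b rests on the reads of Rab4b outside the 65.0% of its exonic bases that it shares with Gm21983 on the same strand, and Rab5a has an annotated near copy, Rab5a-ps.

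**Figure D5:**
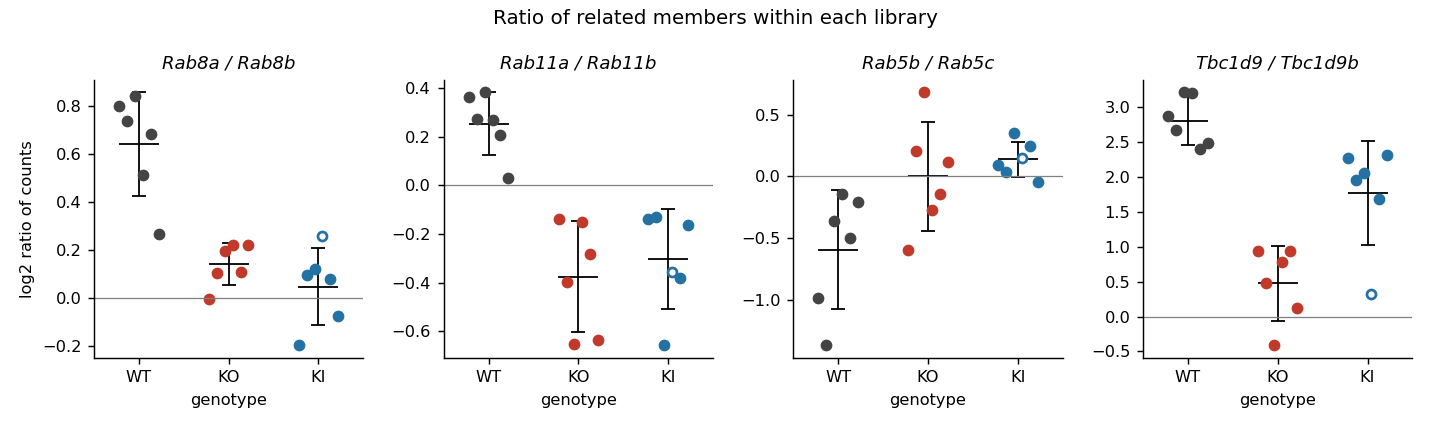
Log2 ratio of the counts of 2 related members (vertical axes) within each library, by genotype, with KI 4 as an open circle and bars for the mean ± SD. For Rab8a to Rab8b, Rab11a to Rab11b and Tbc1d9 to Tbc1d9b, every mutant library lies below every WT library, and for Rab5b to Rab5c every KI library lies above.

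The other genes of the Rab cycle were counted from lists, beside the same shares of all genes (16.4% higher and 13.5% lower in KO, 16.1% and 15.4% in KI). With close pairs summed and KI 4 left out, 19 of the 35 calls of these genes in KO and 26 of the 44 in KI were lost. Of the Rab GEFs, 18 of 45 tested were higher and 3 lower in KO, and 21 higher and 4 lower in KI, with medians of 0.20 and 0.23 on the log2 scale. Dennd2c had the largest rise of those called (log2 fold change 1.04 ± 0.20 in KO and 0.91 ± 0.20 in KI), followed by Rin2 in KO (0.79 ± 0.17) and Dennd3 in KI (0.80 ± 0.12). Of those called, the largest falls were those of Dennd1b, a GEF of Rab35, in KO (-0.70 ± 0.14) and Trappc2l, of the TRAPP complexes, in KI (-1.01 ± 0.20). Trappc2l also fell in KO (-0.52 ± 0.20), and Rab3il1 fell in KI (-0.84 ± 0.31), and these calls were among those lost (adjusted p = 0.101 and 0.412).

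Of 10 further TBC-domain genes, 2 were higher and 1 lower in KO and 3 higher and 1 lower in KI. The lower one was Sgsm2, which acts on Rabs of melanosomes, at 28.5 ± 2.13 CPM in WT, 12.4 ± 0.411 CPM in KO and 11.7 ± 0.710 CPM in KI, a log2 fold change of -1.20 ± 0.09 and -1.28 ± 0.09 with no overlap. The higher ones were Rabgap1l (0.30 ± 0.10 and 0.26 ± 0.10), Sgsm1 (0.64 ± 0.27 and 0.89 ± 0.27) and, in KI, Rabgap1 (0.29 ± 0.12). Of these, the calls of Sgsm2 and, in KI, of Sgsm1 held with close pairs summed and KI 4 left out. Of the 7 genes that move Rabs on and off membranes, 1 was called, Rabac1, which was lower in KI (-0.38 ± 0.16, with -0.25 ± 0.16 in KO). Of the Rab effectors, 9 of 39 tested were higher and 2 lower in KO, and 10 higher and 4 lower in KI. Bicd1, a dynein adaptor that binds Rab6, had the largest fall of those called, from 14.3 ± 2.07 CPM to 5.44 ± 0.633 CPM in KO and 5.07 ± 1.40 CPM in KI (log2 fold change -1.39 ± 0.16 and -1.49 ± 0.16). Rabepk, which binds Rab9, fell in both genotypes (-0.51 ± 0.19 and -0.63 ± 0.19) and Sytl3 fell in KI (-0.64 ± 0.27). Myrip and Rph3a, both effectors of secretory Rabs, had the largest rises of those called, at levels under 1 CPM on average (1.25 ± 0.42 and 0.88 ± 0.35 in KO, 1.32 ± 0.41 and 1.05 ± 0.35 in KI). The calls of Bicd1 and Myrip held in both genotypes with close pairs summed and KI 4 left out, and those of Rabac1, Rabepk, Sytl3 and Rph3a were lost (adjusted p between 0.129 and 0.308). Sytl3 was also lost without KI 4 alone (adjusted p = 0.1104).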

How the data were processed

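Poly(A) selection was left out of the libraries. The authors trimmed the paired reads (cutadapt 3.4), aligned them to GRCm38 (STAR 2.7.8a) and counted uniquely assigned pairs per gene of GENCODE M18 by strand (featureCounts, Subread 2.0.1), and deposited raw counts for 54232 genes, which were used unchanged. Reads that fit several genes, such as a Rab and its pseudogene, were not counted. Symbols came from GENCODE M21 (54079 identifiers matched) and promoters from RefSeq.

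Counts were filtered (filterByExpr, 21058 genes), scaled (TMM) and fitted over 18 libraries by genotype with the quasi-likelihood model of edgeR 4.0.16 in R 4.3.3. A change of any amount was tested with glmQLFTest and a change past 1 log2 unit with glmTreat, each called at a Benjamini-Hochberg adjusted p under 0.1 over all genes tested. Standard errors are the log2 fold change over the root of its F value. RPKM used the gene lengths of the table. Ratios within libraries had 0.5 added to each count. The method was tested on simulated data with independent libraries and changes past 1 log2 unit. Close pairs of libraries and smaller changes were not simulated, so the test does not cover them. Depth was 18766971 to 26776555 counts per library. Floors and counts cover counting error only, since reads carried no molecular identifiers. The libraries of a genotype are not stated to come from separate animals, so p-values measure the spread between libraries.

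Members, lists and tests were chosen with earlier results of these data known. Named were Ddx25, members past 1 log2 unit, the 10 largest rises and falls among those called in each comparison with WT, members called between KI and KO, the 10 highest by RPKM in WT, members with a described role in spermatids, and the 2 largest rises and falls called in each list of other genes. Other members named were chosen after their values were seen. Alternatives were DESeq2 1.42.0, its size factors, no filter, at least 10 counts in every library, an adjusted p under 0.05, the replicate number as a block, KI 4 left out, close pairs summed, and only the genotypes compared. A listing of members by likeness of profile to Tbc1d20 was planned and is not reported, since the libraries fall into clusters by genotype. Protein motifs were not used here. Python 3.11.15 and matplotlib 3.10.9 made the figures.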

Additional observations from a re-analysis of the deposited data

Results flagged for a closer look

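In groups of 6 libraries, a single library lay apart from the other 5 by Dixon's ratio in 5 of 99 groups of named members examined, and chance gives about 1 in 20. Rab20 had 2.92 CPM in KO 5, with the other KO libraries at 3.72 to 4.16 CPM. Rab4a had 0.742 CPM in KO 2, with the others at 0.221 to 0.382 CPM. Rab6b had 4.20 CPM in KO 6, with the others at 2.75 to 3.20 CPM, and Tbc1d22a had 47.3 CPM in KO 6, with the others at 31.3 to 36.6 CPM. Both values of KO 6 lie farther from WT than those of the other KO libraries. Tbc1d9b had 5.82 CPM in WT 2, with the other WT libraries at 4.22 to 4.62 CPM and the KO libraries at 7.84 CPM or more.

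Rab4a differed between the mutant genotypes, with a log2 fold change of 2.69 in KI against KO (edgeR adjusted p = 0.0499), and opposite signs against WT. Over the 8 alternatives in which it was tested, the value stayed between 2.66 and 2.89 and the adjusted p between 0.000129 and 0.0527.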

How the results depend on the processing

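With no filter on low counts, 8 of the 18 higher calls in KO remained, and 2 members, Rab4a and Tbc1d9, were higher in KI than in KO. Leaving out KI 4 also gave 2 for KI against KO, and at least 10 counts in every library gave 0, since Rab4a is then not tested (DESeq2 called 1, and 2 members had an unadjusted p under 0.05 in edgeR with the usual filter). With close pairs of libraries summed and KI 4 left out, which leaves 3 WT, 5 KO and 3 KI libraries, 6 members were higher and 5 lower in KO, 5 were higher in KI, and 0 passed 1 log2 unit in either. Tbc1d20, Rab28, Tbc1d7, Tbc1d13, Tbc1d22a, Rab6b and Rab8b were called in both genotypes for a change of any amount under all 9 alternatives. Rab11a, which was not called, changed sign in KO with DESeq2 (-0.0279), its size factors (-0.0277), no filter (-0.0354) and the replicate block (-0.00629), and in KI without KI 4 (-0.0197). At an adjusted p under 0.05, 12 of the 18 higher and 6 of the 8 lower calls in KO remained. In KI, 14 of the 21 higher and all 4 lower calls remained. Shares of all genes called were not computed at this threshold or without the filter. These counts therefore describe only how the calls of members depend on the processing.

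Libraries share replicate numbers across genotypes. Deviations from the genotype means of libraries with the same number correlated between -0.44 and 0.48. Libraries with different numbers were not compared in this way, so these values do not settle whether the numbers pair libraries. With the replicate number as a block, the 18 higher and 8 lower calls in KO remained, as did 17 of the 21 higher and the 4 lower calls in KI. In KI, 19 members were then higher and 5 lower, and 1 was higher in KI than in KO. The share of all genes called with this block was not computed.

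Of 70 values for named members, summing close pairs together with leaving out KI 4 took 23 below the threshold, leaving out KI 4 alone took 3, no filter 10 and an adjusted p under 0.05 took 11. The values lost with no filter were those of Rab1b in both genotypes, of Rab20, Tbc1d1, Tbc1d2b, Tbc1d8b and Tbc1d22b in KO, and of Rab6a, Rab7 and Tbc1d31 in KI (adjusted p between 0.102 and 0.209). The other alternatives took at most 4 each.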
